A study of Mus musculus with 18 samples.

Results

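The comparison described here is that of brown fat cells with the other cells of the same tissue. It covers 6 of the 18 arrays of the study: 3 of the adipocyte fraction and 3 of the stromal-vascular fraction (SVF) of interscapular brown adipose tissue, chosen by the depot and fraction that the sample titles give. Both groups are of young adult male C57BL/6 mice with no drug or genetic change given in the labels, and the study calls its 3 samples per group biological triplicates. The other 12 arrays hold the same 2 fractions of inguinal and epididymal fat, again 3 arrays per group. Per the labels, minced tissue was digested with collagenase, the cells that floated after a slow spin were taken as adipocytes, and the pelleted SVF was treated to lyse red cells and strained. The fractions are therefore defined by buoyancy and not by a sort for a surface marker. The labels do not say whether animals were pooled.

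Brown adipocytes burn fatty acids and glucose in densely packed mitochondria, where uncoupling protein 1 lets protons return across the inner membrane and turns the energy of the respiratory chain into heat. Noradrenaline from sympathetic nerves starts this through beta-adrenergic receptors, which drive lipolysis and the transcription of thermogenic genes. The SVF holds what is not fat-laden: adipocyte progenitors and other fibroblasts, endothelial and mural cells of the dense capillary bed, and resident immune cells.

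RNA of each sample was labelled with Cy3 and hybridised to a one-colour Agilent 4x44K mouse array. A level below is the log2 processed signal of a gene's probe relative to that array's 75th percentile signal, so a level of 0 lies at that percentile and 1 log2 unit is a 2-fold difference. Levels of different genes come from different probes and are not set against each other. A difference is the adipocyte mean minus the SVF mean ± its standard error (n = 3 arrays per group), and a gene is called when the adjusted p of limma's moderated test is under 0.05. The 75th percentile signal was 338 to 475 on the adipocyte arrays and 732 to 995 on the SVF arrays, and 49.6 to 58.5 percent of spots against 67.2 to 72.2 percent were well above background. No spot was saturated. Replicates 1 and 2 of both fractions shared a slide and replicate 3 of both fractions was on another, so each slide holds both groups. The standard errors and p-values rest on the spread between samples within all 6 depot and fraction groups of the 18 arrays, not within the brown groups alone.

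SVF replicate 2 stood apart from the other SVF arrays in its adipocyte genes. The median level of the 20 mature adipocyte genes was 5.73 on that array, against 3.30 and 4.07 on SVF replicates 1 and 3 and 6.66 to 7.46 on the adipocyte arrays. Across all genes tested its correlation with the adipocyte arrays was 0.919 to 0.943, and that of the other SVF arrays 0.894 to 0.920. Adipocyte transcripts were thus present on every SVF array and highest on this one, and how far they reduce the differences below was not tested. Counts without it are given where they matter.

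The adipocyte label was borne out by Adipoq, the gene of the hormone adiponectin. Its level was 8.34, 7.58 and 8.01 on adipocyte arrays 1, 2 and 3 and 3.15, 7.16 and 4.42 on SVF arrays 1, 2 and 3. The groups did not overlap, but SVF replicate 2 came within 0.43 of the lowest adipocyte array. The difference was 3.07 ± 0.84, adjusted p = 0.0167, and it no longer passed without SVF replicate 1 (2.19, adjusted p = 0.0976). The lipid droplet gene Plin1 ran in the same order, at 7.53, 6.62 and 7.06 against 1.85, 5.46 and 2.85, with a difference of 3.69 ± 0.78, adjusted p = 0.00373. Of 20 mature adipocyte genes tested 17 rose, none fell and 3 did not pass, with a median difference of 2.61. Over all 19290 genes tested 12.7 percent rose and the median difference was 0.15. Without SVF replicate 1 the count was 6, without SVF replicate 3, adipocyte replicate 1 or adipocyte replicate 3 it was 8, and without SVF replicate 2 it was 18. A fit of the arrays of the scan day of replicates 1 and 2 alone called none of the 20. That day also holds inguinal and epididymal SVF replicates 1 and 2, on another slide. The 3 that did not pass were the resistin gene Retn (3.12 ± 1.31, adjusted p = 0.109), the master regulator Pparg (0.76 ± 0.47, adjusted p = 0.298) and the glycerol channel gene Aqp7 (0.75 ± 0.40, adjusted p = 0.217). Retn was as high on SVF replicate 2 (5.49) as on the adipocyte arrays (5.51, 5.16 and 3.63), and at 0.34 and -0.89 on SVF replicates 1 and 3.

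Ucp1, which defines the brown adipocyte, was present in both fractions. Its level was 8.11, 7.24 and 7.89 on the adipocyte arrays and 3.64, 4.50 and 4.30 on the SVF arrays, so every adipocyte array stood above every SVF array by at least 2.75. Within each brown fraction the SD was 0.45, against 1.20 to 4.04 in the 4 white fat groups, and the test uses 1 spread for all 6 groups. The difference of 3.60 ± 1.56, adjusted p = 0.122 did not pass it. Fitted on the 6 brown arrays alone, the same difference had an adjusted p of 0.000865, and without epididymal adipocyte replicate 3 it was 0.0309. The level of Cidea, a droplet protein gene that marks brown fat, was 9.54, 9.04 and 9.61 against 4.89, 6.75 and 6.70, with a difference of 3.29 ± 1.01, adjusted p = 0.0304 that did not pass without SVF replicate 1 (2.68, adjusted p = 0.137). The progenitor receptor gene Pdgfra had -1.96, -2.32 and -1.74 on the adipocyte arrays and 1.99, 2.29 and 2.82 on the SVF arrays, which did not overlap. It fell by 4.37 (± 0.59, adjusted p = 0.000272) and was well above background on all 6 arrays.

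**Figure D1:**
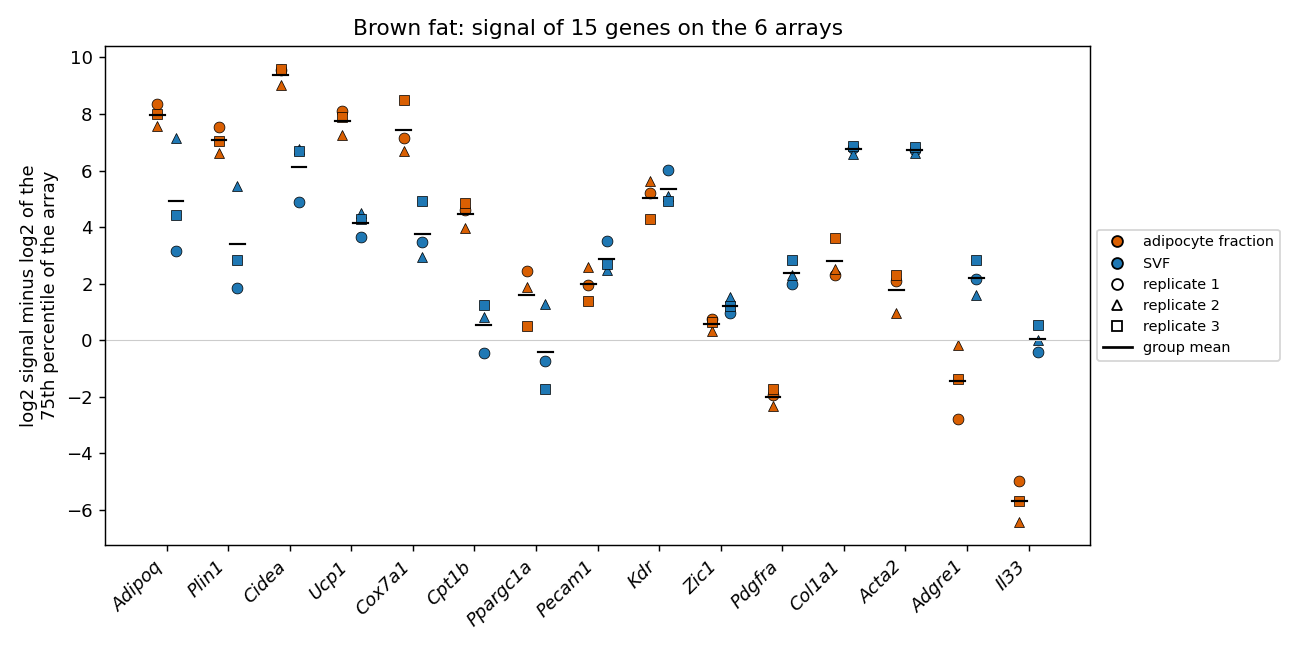
Level of 15 genes (log2 signal relative to the array's 75th percentile, y axis) on the 6 brown fat arrays, with 1 marker shape per replicate number and a bar at each group mean. Adipoq and Plin1 are spread widely over the SVF arrays, where replicate 2 is highest, Ucp1 is tight within each fraction, and Pecam1 and Kdr overlap between the fractions. The adipocyte values of Il33 are not well above background.

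Across the genome 4050 of 19290 genes differed between the fractions (21.0 percent), 2453 higher in adipocytes and 1597 lower (8.28 percent). Differences downwards were larger, and they include genes such as Dpp4 that were not well above background on every adipocyte array. Of the genes that rose 147 did so by at least 3 log2 units and 23 by at least 4, while 473 and 160 fell by as much. The 2453 genes are 60.6 percent of the calls. That share follows the scaling: it was 49.3 percent after quantile normalization and 53.0 percent with the deposited matrix, where the median difference over all genes moved from 0.15 to -0.03 and -0.02. Without SVF replicate 1, SVF replicate 3 or adipocyte replicate 3 the calls were 2533, 2554 and 2471. In the fit of the scan day of replicates 1 and 2 they were 1879.

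Among genes well above background on all 6 arrays and without overlap, the largest rise was in Otop1, the gene of a proton channel (1.17, 0.64 and 0.68 against -5.25, -2.79 and -3.18, difference 4.57 ± 0.68, adjusted p = 0.000416). Next were Slc27a2, a very long-chain acyl-CoA synthetase gene (4.51 ± 1.07, adjusted p = 0.0076), the uncoupling protein gene Ucp3 (4.49 ± 1.11, adjusted p = 0.00944) and Pnpla3, an acylglycerol lipase gene (4.29 ± 0.82, adjusted p = 0.00202). The kininogen gene Kng1 (4.25), the paraoxonase gene Pon1 (4.19), Plin5, which ties lipid droplets to mitochondria (4.17), Tmem45b (4.10), Lctl (4.03), the acute-phase gene Orm1 (3.98), Clstn3 (3.96) and Fabp3, which carries fatty acids inside oxidative cells (3.94), complete the 12. SVF replicate 2 had the highest SVF level for 8 of these genes, such as Orm1 (-4.41, 0.11 and -3.60) and Pon1 (-3.91, 0.09 and -3.40). Ucp3, Pon1 and Orm1 lost their calls when 1 array was left out, Ucp3 without SVF replicate 1 for example (3.66, adjusted p = 0.0575). Just 2 named genes were well above background on all adipocyte arrays and on no SVF array: the mitochondrial carrier gene Slc25a48, at least 7.71-fold higher, and the proton pump subunit gene Atp6v1c2, at least 4.74-fold. Here the fold is against the lowest signal that counts as well above background.

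By the same limit, which leaves out genes not well above background on every array, the 12 largest falls began with Col14a1. This gene, a collagen of fibrous tissue, was at -2.31, -3.74 and -1.77 in adipocytes and 2.52, 2.69 and 3.88 in the SVF (-5.64 ± 0.88, adjusted p = 0.000521). Igfbp6, which binds insulin-like growth factors, had -5.59 ± 0.77, adjusted p = 0.000305. The others are Ccl21c (-5.56), a lymphatic chemokine gene with near-identical copies that the probe may not separate, the ferritin receptor gene Scara5 (-5.29), the collagen-binding integrin gene Itga11 (-5.18), Lgi2 (-5.12), Lrrc17 (-5.12), the neutrophil gene S100a9 (-5.09), the procollagen enhancer gene Pcolce2 (-5.08), the stromelysin gene Mmp3 (-5.05), smooth muscle actin Acta2 (-4.96) and Fndc1 (-4.84). On the adipocyte arrays 1505 genes were not well above background anywhere although all 3 SVF arrays measured them, against 2 genes the other way round. The adipocyte arrays also had fewer spots well above background (49.6 to 58.5 against 67.2 to 72.2 percent). How far this dimmer signal shapes the split was not tested. In bulk RNA, fewer cells of a type and less RNA per cell cannot be told apart.

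**Figure D2:**
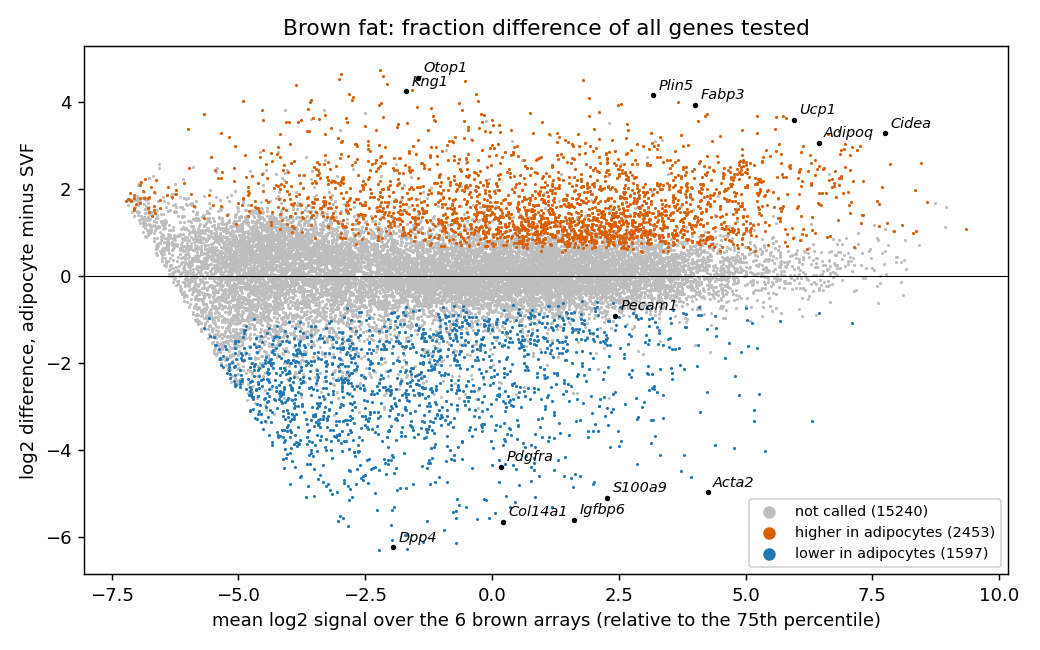
Difference between the fractions (log2, adipocyte minus SVF, y axis) against the mean level over the 6 brown arrays (log2, x axis) for all 19290 genes, coloured by call. The 2453 genes called higher reach 4.57 at Otop1 among those labelled, and the 1597 called lower extend further from 0, with Dpp4 at -6.22 the lowest of those labelled. Ucp1 and Pecam1 are labelled but not called.

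The machinery of oxidative phosphorylation rose almost without exception. All 36 subunit genes of complex I that could be tested rose, from Ndufa8 (1.56) to Ndufab1 (2.66), with a median of 2.14. So did all 20 genes of complexes III and IV and cytochrome c (median 2.39, led by Cox6b1 at 2.71 ± 0.33, adjusted p = 0.000147) and all 17 of the citrate cycle, where Suclg2 had the smallest difference (1.37). Of 15 ATP synthase genes 14 rose (median 1.88). The exception was Atp5g1, which encodes subunit c, the ring that protons turn: its level was 2.14, 2.08 and 2.23 in adipocytes and 2.00, 2.39 and 2.21 in the SVF (-0.05 ± 0.40, adjusted p = 0.95). Its sister gene Atp5g3, which encodes the same mature protein, rose by 0.91 ± 0.25, adjusted p = 0.0184, and Atp5g2 by 1.39. With 1 brown array left out the counts were 36, 20 and 17 for the first 3 lists and 11 to 14 for ATP synthase. In the fit of the scan day of replicates 1 and 2 they were 36, 19, 16 and 9.

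These lists ranked the arrays alike within each fraction. The median level of the complex I genes was 6.22, 5.66 and 6.87 on adipocyte arrays 1 to 3 and 3.58, 4.38 and 3.96 on SVF arrays 1 to 3. Replicate 3 was the highest and replicate 2 the lowest adipocyte array, and SVF replicate 2 the highest SVF array, in this list, in that of complexes III and IV (6.75 to 8.02 against 4.62 to 5.42) and in the citrate cycle (5.39 to 6.60 against 3.24 to 3.91).

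Genes that build mitochondria had smaller median differences than those of the respiratory chain. Of 78 mitochondrial ribosomal protein genes 77 rose, with a median of 1.36 and a range from 0.73 (Mrpl52) to 3.05 (Mrpl34), and Mrpl58 alone missed the threshold (0.95 ± 0.37, adjusted p = 0.0822). Without adipocyte replicate 3 the count was 52, and on the scan day of replicates 1 and 2 it was 25. Over all genes tested 12.7 percent rose. Of 76 cytosolic ribosomal protein genes 3 rose (Rplp2, Rpl30 and Rpl11, 1.00, 0.87 and 0.67) and the list's median was 0.28. That count was 0 without SVF replicate 1, SVF replicate 3, adipocyte replicate 1 or adipocyte replicate 3, 5 without adipocyte replicate 2, and 1 without inguinal SVF replicate 2 or any 1 epididymal array. The deposited matrix called 4 of the cytosolic genes lower. Under quantile normalization the cytosolic median is -0.46, while that of the mitochondrial list is at least 0.98 under every setting tried. Of 17 import and assembly genes 14 rose (median 1.37), led by the chaperone genes Hspa9 (2.05), Hspe1 (1.94) and the translocase genes Timm23 (1.95) and Timm50 (1.93). That count was 8 without SVF replicate 1, adipocyte replicate 1 or adipocyte replicate 3 and 9 without SVF replicate 3. On the scan day of replicates 1 and 2 it was 5. Of 10 genes of coenzyme Q synthesis 7 rose, led by the kinase-like Coq8a (3.56), and of 9 genes of mitochondrial shape 6 rose, with the inner membrane fusion gene Opa1 at 2.14 and Mfn2 at 1.93, while of the fission genes Dnm1l rose (0.69) and Mff (0.20) and Fis1 (0.01) did not pass.

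Regulators of mitochondrial genes were less uniform. Of 13 tested 6 rose: the coactivator gene Ppargc1b (2.88 ± 0.35, adjusted p = 0.000142), its muscle and fat partner Perm1 (2.44), the orphan receptor gene Esrra (2.11 ± 0.33, adjusted p = 0.000533), the mitochondrial transcription factors Tfb1m (1.52) and Tfb2m (1.44) and the polymerase gene Polrmt (0.99). Ppargc1a, the best known coactivator of thermogenesis, was at 2.44, 1.89 and 0.49 against -0.75, 1.26 and -1.73, and these overlap because SVF replicate 2 lies above adipocyte replicate 3. Its difference was 2.02 ± 0.81, adjusted p = 0.096, and it passed without SVF replicate 2 (2.85, adjusted p = 0.0218). Tfam, which packs mitochondrial DNA, had 0.69 ± 0.61, adjusted p = 0.474, the ETS factor gene Gabpa 0.28 ± 0.25, adjusted p = 0.475 and Nrf1 -0.52 ± 0.24, adjusted p = 0.148, none of them called.

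Promoters were searched for letters that regulators of mitochondrial genes are known to bind. The ETS core CCGGAAG, which GABP and other ETS factors bind, was in a larger share of promoters of genes that rose than of genes that fell. Of 12249 tested genes with a promoter in the RefSeq table (GRCm38.p6; 250 bases before to 50 after the start), 16.9 percent held these letters on either strand. The share was 24.5 percent of 1762 genes that rose, 5.79 percent of 1089 that fell and 16.8 percent of 9398 not called. Over all 27025 genes in that table it was 9.93 percent. The core was in 10 of 15 promoters of import and assembly genes, 26 of 69 of the mitochondrial ribosome, 5 of 14 each of complexes III and IV, ATP synthase and the citrate cycle, 4 of 32 of complex I, 2 of 15 of fatty acid oxidation, and none of 14 thermogenic or 20 extracellular matrix promoters. It was also in 23 of 56 promoters of the cytosolic ribosome, of whose 76 genes 73 were not called. A match is a description of the letters and not a bound site. The 4 promoters below are those with the largest difference among genes of complexes III and IV and the citrate cycle that hold the core in their 250 upstream bases. They are given 5′ to 3′ on the gene's strand up to the base before the start, with the core in capitals (CTTCCGG is the core on the other strand).
Cox6b1, chr7:30626115-30626364 (- strand): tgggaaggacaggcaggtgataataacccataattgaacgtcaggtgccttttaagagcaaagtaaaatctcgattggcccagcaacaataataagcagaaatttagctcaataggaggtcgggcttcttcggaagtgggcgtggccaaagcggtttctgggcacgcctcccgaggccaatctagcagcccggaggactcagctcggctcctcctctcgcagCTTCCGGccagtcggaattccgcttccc
Uqcr11, chr10:80406822-80407071 (- strand): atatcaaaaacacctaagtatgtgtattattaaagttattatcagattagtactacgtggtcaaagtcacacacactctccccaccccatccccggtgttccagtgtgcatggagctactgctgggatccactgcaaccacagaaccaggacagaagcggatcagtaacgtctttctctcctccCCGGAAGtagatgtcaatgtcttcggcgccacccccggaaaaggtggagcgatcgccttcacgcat
Sdhd, chr9:50603850-50604099 (- strand): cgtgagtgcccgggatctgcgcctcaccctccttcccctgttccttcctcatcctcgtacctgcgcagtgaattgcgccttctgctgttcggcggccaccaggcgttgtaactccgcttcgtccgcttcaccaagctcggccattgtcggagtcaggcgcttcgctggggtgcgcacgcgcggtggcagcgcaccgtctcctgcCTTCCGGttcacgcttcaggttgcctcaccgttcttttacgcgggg
Idh3g, chrX:73786898-73787147 (- strand): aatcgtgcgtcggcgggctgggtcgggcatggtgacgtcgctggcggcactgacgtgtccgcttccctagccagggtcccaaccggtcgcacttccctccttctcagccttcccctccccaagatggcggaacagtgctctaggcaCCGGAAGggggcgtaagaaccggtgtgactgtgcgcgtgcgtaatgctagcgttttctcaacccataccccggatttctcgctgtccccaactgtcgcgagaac
The gene of Cox6b1, a subunit of complex IV that joins its dimers, rose by 2.71 and carries the core 28 bases before the start. Uqcr11, a small subunit of complex III (2.42), carries it 66 bases before, Sdhd, a membrane anchor of succinate dehydrogenase (2.38), 46 bases before, and Idh3g, a subunit of isocitrate dehydrogenase (2.36), 104 bases before the start. The palindromic motif of NRF1 was rarer, in 1.89 percent of tested promoters, 3.12 percent of those of genes that rose and 0.367 percent of those that fell. The AP-1 letters TGANTCA were in 6.95 percent of tested promoters, 5.96 percent of those of genes that rose and 8.91 percent of those that fell. Over all promoters in the table the share was 8.97 percent. In the respiratory chain, ATP synthase, citrate cycle and fatty acid oxidation lists together it was 8.99 percent. The extended site TCAAGGTCA of the ERR family was present in the promoters of Atp5g3 and Sdhd among the respiratory chain, ATP synthase, citrate cycle and fatty acid oxidation lists. These are 2 of 89 promoters, or 2.25 percent, against 0.278 percent of tested promoters. The Sdhd match does not lie in the bases printed above.

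**Figure D3:**
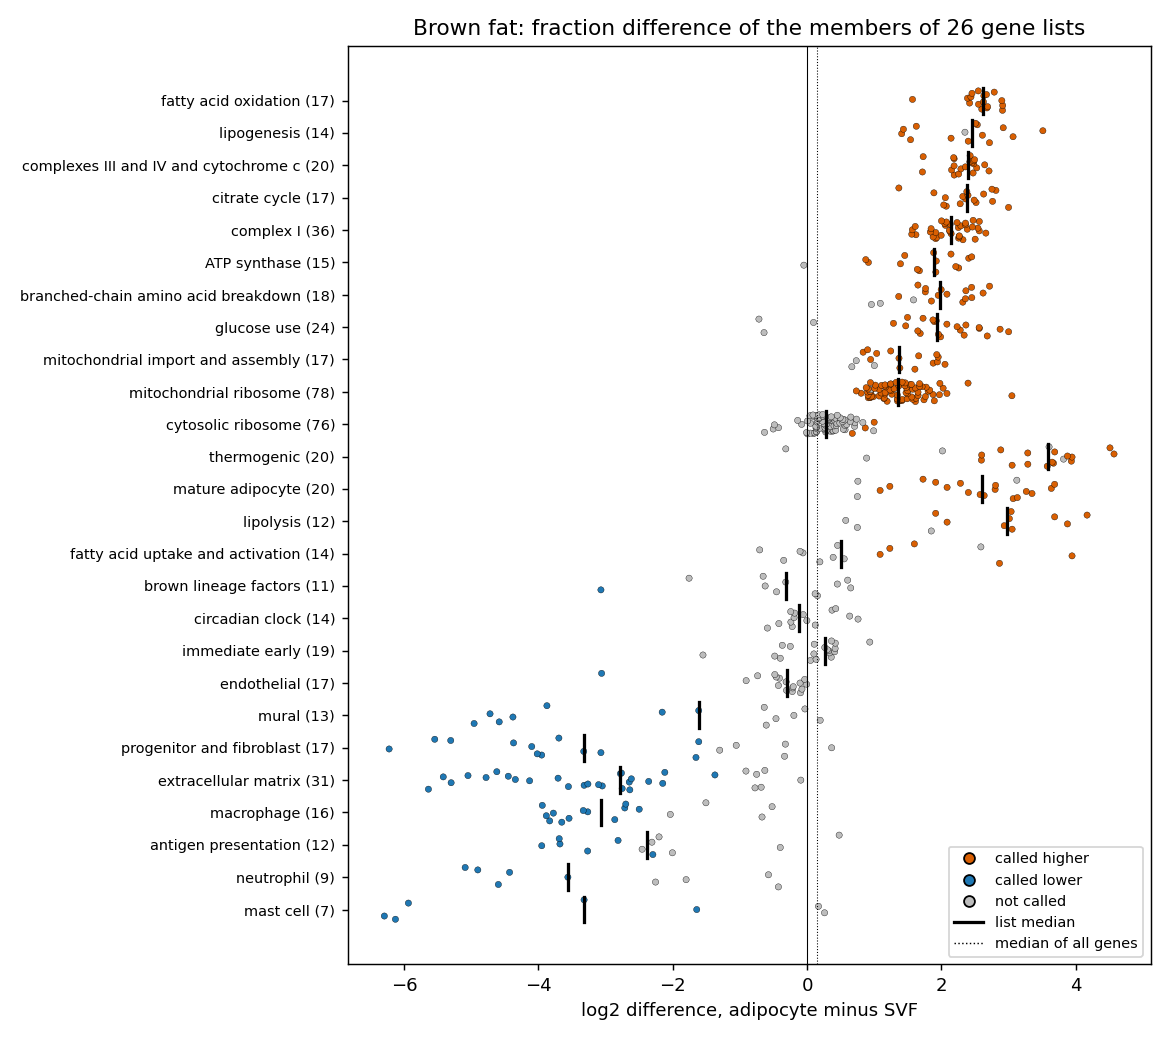
Difference between the fractions (log2, adipocyte minus SVF, x axis) of each tested member of 26 gene lists (rows, number of genes in brackets), with a bar at the list's median and a dotted line at the median of all genes. All 36 complex I, 20 complex III and IV, 17 citrate cycle and 17 fatty acid oxidation genes lie to the right and were called. The endothelial, circadian and brown lineage lists are near 0, and the matrix, macrophage, neutrophil and mast cell lists reach to the left.

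Several steps of oxidative metabolism have a form made in muscle, heart or brown fat and a widespread form. The level of Cox7a1, the heart and brown fat form of a complex IV subunit, was 7.15, 6.68 and 8.48 against 3.46, 2.93 and 4.92, a difference of 3.67 ± 0.80, adjusted p = 0.00433, beside 2.29 ± 0.31, adjusted p = 0.000262 for the widespread form Cox7a2. Cox8b had 3.65 ± 0.72, adjusted p = 0.00253 and its widespread counterpart Cox8a 2.19 ± 0.38, adjusted p = 0.00103. Cox6a2 was an exception (0.43 ± 0.84, adjusted p = 0.767, against 1.72 ± 0.25, adjusted p = 0.000387 for Cox6a1). Cox4i2 could not be tested beside Cox4i1 (2.19). Whether the members of a pair differed from each other was not tested. In the carnitine transferase and desaturase pairs the members were called in opposite directions, and in the pairs of Hk2, Slc2a4 and Fabp3 the second member did not pass. Cpt1b, the muscle-type carnitine transferase that lets fatty acids into mitochondria, rose by 3.93 ± 0.73, adjusted p = 0.00159, while the liver-type Cpt1a fell by 0.96 (± 0.26, adjusted p = 0.0146). The desaturase gene Scd1 rose by 2.92 ± 0.43, adjusted p = 0.000409 and Scd2 fell by 0.96 (± 0.29, adjusted p = 0.0271). Neither fall passed without SVF replicate 1 (adjusted p = 0.0746 for Cpt1a and 0.13 for Scd2). Hexokinase 2 (Hk2) rose by 3.00 ± 0.49, adjusted p = 0.00066 and Hk1 was at -0.64 ± 0.22, adjusted p = 0.0519. The insulin-responsive glucose carrier gene Slc2a4 rose by 1.73 ± 0.48, adjusted p = 0.0176 and Slc2a1 was at -0.72 ± 0.29, adjusted p = 0.102. Fabp3 rose by 3.94 ± 0.98, adjusted p = 0.00952, with Fabp5 at -0.06 ± 0.43, adjusted p = 0.94. Both lactate dehydrogenase genes rose (Ldhb 2.28, Ldha 1.65), as did both adenine nucleotide carriers (Slc25a4 0.99, Slc25a5 1.12). The carrier calls were less stable: Slc25a5 lost its call without 1 of 14 of the 18 arrays and Slc25a4 without 1 of 4.

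**Figure D4:**
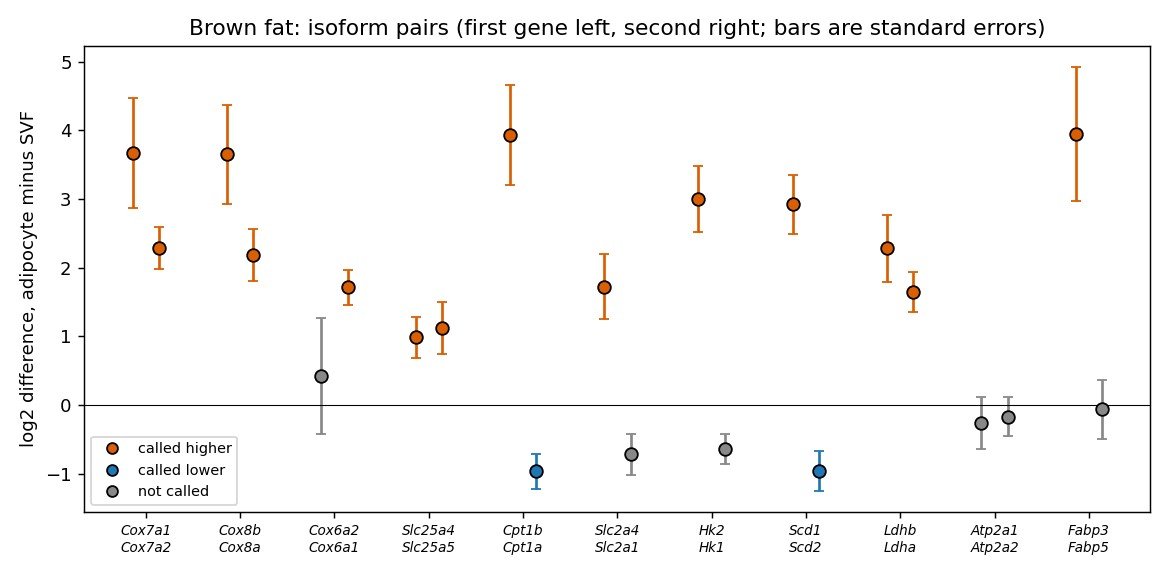
Difference between the fractions (log2, adipocyte minus SVF, y axis) with its standard error for 11 pairs of isoform genes, coloured by call. Both members rose for Cox7a, Cox8, Slc25a4 with Slc25a5, and Ldh, while Cpt1b and Scd1 rose where Cpt1a and Scd2 fell.

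Fuel use followed the same direction. All 17 genes of mitochondrial fatty acid oxidation rose (median 2.63), from Eci2 (1.57) to Acaa2, the thiolase of the last step (8.41, 7.75 and 8.82 against 5.21, 5.56 and 5.49, difference 2.91 ± 0.34, adjusted p = 0.000119), and Acadvl, which starts on long chains (2.91 ± 0.48, adjusted p = 0.000915, fitted without the outlier spot on SVF replicate 3). Of 18 peroxisomal genes 15 rose, led by Acot4 (4.60 ± 1.29, adjusted p = 0.0195), whose levels overlap (1.24, -0.83 and 0.03 against -7.54, -0.65 and -5.16, 2 SVF arrays well above background), Ehhadh (3.06) and the carnitine acetyltransferase gene Crat (2.66). Of 24 genes of glucose use 21 rose (median 1.94). They include the pyruvate carrier genes Mpc1 (2.87) and Mpc2 (2.56), the dehydrogenase subunit gene Dlat (2.68) and the enolase gene Eno1 (2.34). Breakdown of branched-chain amino acids, a fuel of active brown fat, had 15 of 18 genes higher (median 1.97), led by Pccb (2.72), Hibch (2.62) and the decarboxylase genes Bckdhb (2.45) and Bckdha (2.36). Bcat2, which takes the first step, was at 1.58 ± 0.64, adjusted p = 0.0961. With 1 brown array left out the lowest counts were 11 peroxisomal, 19 glucose use and 14 branched-chain genes. On the scan day of replicates 1 and 2 they were 6, 11 and 6. The count for fatty acid oxidation stayed at 17 in all of these fits.

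Genes of lipid synthesis and of lipid breakdown were both called higher. Of 14 lipogenic genes 13 rose (median 2.45), led by the sugar-sensing factor gene Mlxipl (3.51 ± 0.78, adjusted p = 0.0049), the elongase gene Elovl6 (3.07 ± 0.60, adjusted p = 0.00233), Scd1 and the carboxylase gene Acaca (2.71), and the malic enzyme gene Me1 (2.35 ± 0.94, adjusted p = 0.0919) did not pass. Fasn was at 9.83, 9.69 and 9.76 in adipocytes and 5.77, 8.80 and 6.87 in the SVF. Its SVF replicate 2 was close to the adipocyte arrays, and without SVF replicate 1 or SVF replicate 3 the list's count was 7. On the scan day of replicates 1 and 2 it was 1, and for the lipolysis genes described next it was 3. Of 12 lipolysis genes 9 rose (median 2.97): Plin5 (4.17 ± 0.71, adjusted p = 0.000932), the glycerol kinase gene Gk (3.88 ± 0.60, adjusted p = 0.000517), which lets glycerol be reused in brown fat, Plin1, Adrb3, the kinase subunit gene Prkar2b (3.04), Pde3b (3.01), the lipase inhibitor gene G0s2 (2.94) and the lipase genes Lipe (2.08) and Pnpla2 (1.91). The monoglyceride lipase gene Mgll did not pass (0.58 ± 0.33, adjusted p = 0.26). Of 14 genes of fatty acid uptake 5 rose, a count of 1 without SVF replicate 1, 2 without SVF replicate 3, adipocyte replicate 1 or adipocyte replicate 3, 3 without adipocyte replicate 2 and 1 under quantile normalization. Acsl1 rose by 2.86 and the lipoprotein lipase gene Lpl by 1.23, while the fatty acid receptor gene Cd36 (0.39 ± 0.31, adjusted p = 0.43) and Gpihbp1, the capillary anchor of that lipase (-0.10 ± 0.32, adjusted p = 0.856), did not pass. Cd36 had 6.63, 6.54 and 6.39 on the adipocyte arrays and 6.54, 5.99 and 5.87 on the SVF arrays, which overlap. Fabp4, the adipocyte fatty acid binding protein gene, rose by 1.09 ± 0.34, adjusted p = 0.035 but was at -0.03 after quantile normalization and -0.04 in the deposited matrix, neither called.

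Of 20 thermogenic genes 15 rose, with a median of 3.59. Besides Otop1, Slc27a2, Fabp3, Cpt1b, Gk, Cox7a1, Cox8b and Cidea these are the lipid sensor gene Ppara (3.82, 3.41 and 4.02 against -0.52, 0.70 and 0.02, difference 3.69 ± 0.59, adjusted p = 0.000636), the thioesterase gene Acot11 (3.58), Pdk4 (3.29), Adrb3, Ppargc1b, the potassium channel gene Kcnk3 (2.60) and the thyroid hormone activating deiodinase gene Dio2 (0.88, 0.08 and 0.92 against -2.66, -2.00 and -1.26, difference 2.60 ± 0.43, adjusted p = 0.000805). Ucp1, the elongase gene Elovl3 (3.82 ± 1.62, adjusted p = 0.115), Ppargc1a, Esrrg (0.89 ± 0.54, adjusted p = 0.285) and Prdm16 (-0.32 ± 0.35, adjusted p = 0.575) did not pass. Elovl3 had -2.07, -1.50 and -2.95 on the adipocyte arrays and -7.91, -2.87 and -7.20 on the SVF arrays, where replicate 2 alone was well above background. With 1 array left out the count was 14 to 17, and on the scan day of replicates 1 and 2 it was 13.

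Transcription factors that set brown identity were not higher by the test. Of 11 brown lineage genes none rose and Eya2 fell (-3.07 ± 0.56, adjusted p = 0.0015, well above background on 1 adipocyte array), with a median of -0.32. Over all genes tested 12.7 percent rose and 8.28 percent fell, and the 1 fall here (9.09 percent) is near that share. Without inguinal SVF replicate 1 the count of falls was 2. Zic1, a marker of the interscapular depot, was at 0.76, 0.32 and 0.63 in adipocytes and 0.95, 1.52 and 1.20 in the SVF: the groups do not overlap, yet the difference of -0.65 ± 1.07, adjusted p = 0.72 did not pass. Ebf2, which marks committed brown progenitors, overlapped between the fractions (1.94, 1.51 and 2.67 against 1.36, 1.91 and 2.38, 0.15 ± 0.51, adjusted p = 0.866), and so did Prdm16 (2.21, 2.21 and 1.76 against 2.73, 2.36 and 2.04). Lhx8 (0.65) and Tbx15 (-1.76 ± 1.03, adjusted p = 0.264) did not pass, although every SVF array was higher for Tbx15. Fitted on the 6 brown arrays alone, 2 genes of this list fell. Of 23 adipogenic factors 5 rose, namely Cebpa (2.64 ± 0.50, adjusted p = 0.00195), Rxrg (1.98), Stat5a (1.68), Srebf1 (1.63) and Cebpb (1.41), while the progenitor factor genes Klf5 (-2.06 ± 0.43, adjusted p = 0.00368, 1 adipocyte array above background) and Zfp521 (-1.74 ± 0.40, adjusted p = 0.00617) fell. The count of rises was 2 without SVF replicate 1, SVF replicate 3 or adipocyte replicate 1, 3 without adipocyte replicate 3 and 1 on the scan day of replicates 1 and 2. Pparg was at 5.92, 6.02 and 5.83 and 5.56, 5.18 and 4.75, which do not overlap.

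Of 22 hormone receptor genes 9 rose, 2 fell and 11 did not pass, where 12.7 percent of all genes rose and 8.28 percent fell. On the scan day of replicates 1 and 2 alone 3 of the receptor genes rose. The thyrotropin receptor gene Tshr rose by 4.01 ± 0.73, adjusted p = 0.00142 (well above background on 1 SVF array), the FGF21 coreceptor gene Klb by 3.75 ± 0.73, adjusted p = 0.00222, the antilipolytic adenosine receptor gene Adora1 by 3.38 ± 0.62, adjusted p = 0.00151 and the fatty acid receptor gene Ffar4 by 3.19 ± 0.66, adjusted p = 0.00332. Of the receptors for noradrenaline, Adrb3 rose by 3.05 ± 0.61, adjusted p = 0.00254, at -2.14, -2.47 and -2.75 in adipocytes and -6.09, -4.89 and -5.52 in the SVF with 1 SVF array well above background. Adra1a (2.56) and Adrb1 (1.87) rose as well. Adra1b fell, from -0.43, -0.44 and 0.29 in the SVF to -5.62, -4.97 and -4.02 in adipocytes (-4.68 ± 0.56, adjusted p = 0.00013), and Adra2a too (-2.58 ± 0.61, adjusted p = 0.0073), each well above background on 1 adipocyte array. The insulin receptor gene Insr (0.75) did not pass.

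Secreted factors went both ways. Of 21 tested 9 rose and 4 fell, where 12.7 percent of all genes rose and 8.28 percent fell. The neuregulin gene Nrg4 rose by 3.78 ± 0.92, adjusted p = 0.00846, although SVF replicate 2 (2.72) lies near the adipocyte arrays (4.43, 3.14 and 4.41), and Lep (3.64, 1 SVF array above background) and the prostaglandin D synthase gene Ptgds (3.46) rose too. Among those that fell were the chemokine gene Cxcl14 (-3.60 ± 0.64, adjusted p = 0.0012), Metrnl (-2.47) and the chemerin gene Rarres2 (-1.73). The count of rises was 4 without SVF replicate 1 or SVF replicate 3 and 5 without adipocyte replicate 1 or adipocyte replicate 3. On the scan day of replicates 1 and 2 it was 1. Among 13 angiogenic ligand genes Vegfb rose (1.83 ± 0.56, adjusted p = 0.0311) and Vegfc (-2.64 ± 0.36, adjusted p = 0.000271), Vegfd (-1.92), Angpt2 (-1.79) and Pdgfa (-1.14) fell, with Vegfa at 1.61 ± 0.64, adjusted p = 0.0943. Without SVF replicate 1, SVF replicate 3 or adipocyte replicate 2, just 2 of these fell. Vegfb was called without SVF replicate 2 alone among the brown arrays left out. Of 19 BMP and TGF-beta genes 7 fell, 11 did not pass and the activin receptor gene Acvr1c rose (3.05 ± 0.88, adjusted p = 0.0228), a call lost without SVF replicate 1, SVF replicate 3, adipocyte replicate 1 or adipocyte replicate 2. Gdf10 fell by 5.84 (± 0.65, adjusted p = 9.54e-05, well above background on 1 adipocyte array), Inhba was at least 14.2-fold lower, and Bmp7, which drives brown adipogenesis, was at -4.89, -6.36 and -3.90 in adipocytes against -1.14, -1.07 and 0.42 in the SVF (-4.45 ± 0.80, adjusted p = 0.00129, well above background on 1 adipocyte array).

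Genes of the creatine and calcium cycles were not called higher in brown adipocytes, where 12.7 percent of all genes rose and 8.28 percent fell. Of 11 tested none rose and 2 fell: Gatm, which makes the creatine precursor (-5.20, -3.17 and -3.51 against -0.26, -1.52 and -0.76, -3.11 ± 0.60, adjusted p = 0.00221, 2 adipocyte arrays above background), and the phosphatase gene Alpl (1.14, 1.89 and 1.59 against 3.45, 3.01 and 2.88, -1.57 ± 0.36, adjusted p = 0.0061). The kinase gene Ckb had -0.79 ± 0.28, adjusted p = 0.0627, the mitochondrial kinase gene Ckmt2 0.54 ± 1.18, adjusted p = 0.793 and the calcium pump gene Atp2a2 -0.17 ± 0.29, adjusted p = 0.739, none called. Of 14 circadian genes none was called and their median difference was -0.12.

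Fibroblast and progenitor genes were lower in adipocytes where called. Of 17 genes 12 fell, none rose, and the median was -3.33, where 8.28 percent of all genes fell. Dpp4, which marks early progenitors, had -4.39, -6.61 and -4.20 in adipocytes (well above background on 1 array) and 0.62, 0.84 and 2.00 in the SVF (-6.22 ± 0.91, adjusted p = 0.000366). Sfrp2 was at -5.54 ± 0.90, adjusted p = 0.000659 (2 adipocyte arrays above background) and Pi16, another early progenitor gene, at -5.30 ± 0.81, adjusted p = 0.000556, fitted without an outlier spot on an SVF array. Col1a1 was still high in the adipocyte fraction, at 2.30, 2.50 and 3.60, but 6.78, 6.60 and 6.88 in the SVF. The members with the smallest difference were Gsn (0.37), which fat cells also express, Ly6c1 (-0.32) and Cd55 (-0.34). Gsn was called lower in the deposited matrix (-0.71). Of 31 extracellular matrix genes 25 fell, led after Col14a1 by the microfibril gene Mfap5 (-5.42), the fibulin gene Fbln1 (-5.30), both well above background on 2 adipocyte arrays, and Mmp3, and the basement membrane collagen genes Col4a1 (-0.78 ± 0.34, adjusted p = 0.132) and Col4a2 (-0.68 ± 0.33, adjusted p = 0.172) did not pass. With 1 array left out 11 to 13 progenitor and 23 to 26 matrix genes fell.

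Of 17 endothelial genes 1 fell and 16 did not pass, where 8.28 percent of all genes fell. All 17 differences were below 0 (median -0.31), where the median of all genes was 0.15. Pecam1 had 1.95, 2.59 and 1.39 on the adipocyte arrays and 3.50, 2.46 and 2.68 on the SVF arrays, which overlap (-0.91 ± 0.50, adjusted p = 0.236). Kdr (5.20, 5.64 and 4.27 against 6.03, 5.10 and 4.91), Cdh5 (4.69, 5.42 and 5.17 against 5.76, 4.47 and 5.36) and Flt1 (6.60, 7.05 and 6.53 against 7.15, 6.36 and 6.68) overlap as well. All 17 genes were well above background on every brown array. Endothelial transcripts were thus measured in the adipocyte fraction, and their part in other differences was not tested. Under quantile normalization the list's median was -0.84. The exception was Vwf, the clotting factor gene of larger vessels, at 0.51, 0.60 and 1.43 against 4.37, 3.48 and 3.87 (-3.06 ± 0.32, adjusted p = 5.11e-05). Lymphatic genes differed: Lyve1 was at least 30.0-fold lower in adipocytes, Prox1 at least 1.96-fold, and 3 of 4 such genes fell.

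Of 13 mural genes 7 fell, and 6 or 7 did so with any 1 brown array left out. Of the contractile smooth muscle genes Acta2 was at 2.09, 0.95 and 2.30 in adipocytes and 6.72, 6.63 and 6.84 in the SVF (-4.96 ± 0.45, adjusted p = 1.94e-05), Myh11 at -0.32, -0.78 and 0.04 and 4.29, 4.32 and 4.50 (-4.72 ± 0.35, adjusted p = 5.08e-06), and Cnn1 (-4.58), Lmod1 (-4.38) and Tagln (-3.87) followed. Smtn, another smooth muscle gene, did not pass (-0.64 ± 0.38, adjusted p = 0.275). Of genes that mark pericytes, Notch3 (-2.16 ± 0.25, adjusted p = 0.000109) and the receptor gene Pdgfrb (-1.61 ± 0.40, adjusted p = 0.0104, fitted without the outlier spot on SVF replicate 3) fell. Rgs5 (4.01, 4.98 and 3.55 against 4.55, 3.61 and 4.49, -0.03 ± 0.67, adjusted p = 0.981) and Cspg4 (2.48, 2.42 and 2.24 against 2.07, 2.43 and 2.05, 0.20 ± 0.34, adjusted p = 0.737), with Mcam (-0.20 ± 0.43, adjusted p = 0.789), were not called and overlap, and Abcc9 was not called (-0.61 ± 0.43, adjusted p = 0.366) although every SVF array was higher.

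No gene of the immune cell lists rose. Of 16 macrophage genes 12 fell (median -3.06), among them Mrc1 (-3.94 ± 0.67, adjusted p = 0.000909), Cd163 (-1.70, -1.98 and -1.51 against 1.88, 1.96 and 2.61, -3.88 ± 0.59, adjusted p = 0.000439), C1qa (-3.83) and Csf1r (-3.78). Adgre1 varied in adipocytes (-2.81, -0.19 and -1.36) and was higher on every SVF array (2.17, 1.60 and 2.83), with -3.65 ± 0.75, adjusted p = 0.00304. Macrophage genes were highest on adipocyte replicate 2, whose median level was -0.97 against -2.78 and -1.44 on replicates 1 and 3, and the list's count was 8 without adipocyte replicate 1. Of 12 antigen presentation genes 6 fell, led by H2-Aa (-3.95), H2-Eb1 (-3.69) and Cd74 (-3.27 ± 0.82, adjusted p = 0.0101). Of 9 neutrophil genes 5 fell: S100a9 (0.96, -2.10 and 0.31 against 5.28, 4.87 and 4.29, -5.09 ± 0.91, adjusted p = 0.00127), S100a8 (-4.90), Retnlg (-4.43), Csf3r (at least 5.97-fold) and Mmp9 (at least 4.59-fold). Of 7 mast cell genes 5 fell, with Mcpt4 at least 39.5-fold and Cpa3 at least 31.4-fold lower, the largest bounds among all named genes, while Kit (0.17 ± 0.47, adjusted p = 0.838) overlapped. The cytokine genes Il1b (-5.25 ± 0.82, adjusted p = 0.00052) and Ccl3 (-3.50) fell, Ccl3 losing its call without any 1 brown array other than adipocyte replicate 2, and Il33, an alarmin made by stromal cells, was at least 16.9-fold lower. T and NK cell genes had 3 of 14 called, or 5 without inguinal adipocyte replicate 3 (Gzma -3.61, Nkg7 -3.54 and Gzmb -3.52) and B cell genes none of 7. Of these genes Retnlg, S100a8, Gzma and Gzmb were well above background on 1 adipocyte array, and Mrc1, Il1b, Ccl3 and Nkg7 on 2.

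Markers of skeletal muscle, blood, mesothelium and nerve differed by list, where 12.7 percent of all genes rose and 8.28 percent fell. None of 12 skeletal muscle genes was called, and their median level was 0.01, -2.66 and -1.18 on the adipocyte arrays and -1.34, 0.75 and -1.23 on the SVF arrays, so that adipocyte replicate 1 and SVF replicate 2 carried most. The hemoglobin gene Hba-a1 overlapped (6.54, 7.69 and 7.70 against 8.03, 7.58 and 8.18), although red cells were lysed in the SVF only, while 3 of 7 red cell and platelet genes fell (Pf4 -2.76, Alas2 -1.38 and Ppbp -1.32), of which 1 was called without SVF replicate 1, SVF replicate 3 or adipocyte replicate 1. Ppbp lost its call without 1 of 14 of the 18 arrays. Of 9 mesothelial genes the keratin gene Krt18 alone was called, at least 5.14-fold lower, and it kept its call without adipocyte replicate 1 alone among the brown arrays left out, while the mesothelial genes Wt1 and Upk3b were well above background on none of the 6 arrays. Of 8 Schwann cell genes 3 fell, among them the myelin gene Pmp22 (-1.58), and 2 rose, the calcium-binding S100b (2.32 ± 0.47, adjusted p = 0.00275), which fat cells also express, and Mag (0.90), whose call was lost without 1 of 8 of the 18 arrays. Cell cycle genes were lower where called, 4 of 22: Mki67 (-2.24 ± 0.56, adjusted p = 0.0103), Top2a (at least 1.19-fold), Ccna2 (-2.00, 2 adipocyte arrays above background) and E2f1 (-1.0), a count of 1 without SVF replicate 1 or SVF replicate 3 and of 7 without inguinal SVF replicate 3. None of 19 immediate early genes, which respond to tissue digestion, was called (median 0.26, or -0.44 after quantile normalization), and their median level was 3.77 to 4.84 on adipocyte and 3.97 to 4.85 on SVF arrays.

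Few genes had a fraction difference in brown fat that differed from that in white fat by a test of the interaction. There were 165 genes against inguinal fat (0.855 percent) and 391 against epididymal fat (2.03 percent), of which 140 and 289 were more negative in brown fat (0.726 and 1.5 percent of genes tested) and 25 and 102 more positive (0.13 and 0.529 percent). Both interactions use the same 6 brown arrays, so they are not independent. Among those more negative in brown fat were the contractile genes Acta2, Cnn1, Actc1 and Myh11. The difference of Acta2 was -4.96 in the brown, 0.92 in the inguinal and 1.23 in the epididymal depot, an interaction of -5.87 ± 0.64 (adjusted p = 0.000373) and -6.18 ± 0.64 (adjusted p = 0.000324). The interaction of Cnn1 was -6.67 and -6.12, that of Actc1 -5.84 and -5.85 and that of Myh11 -5.10 against inguinal fat. Sncg, a synuclein gene of fat and nerve, had -5.43 and -6.42, the latter the most negative named against epididymal fat, and the matrix gene Thbs1 -5.87 there. Genes were named for their interaction only if also called in brown fat and well above background on every array of both depots compared. Among such genes, the most positive against epididymal fat were the asparaginase gene Aspg (4.99), Acot11 (4.07), the carbonic anhydrase gene Car14 (3.90), Gk (3.68) and the neurotrophin receptor gene Ntrk3 (3.16). Against inguinal fat these were Entpd4 (2.57), the mitochondrial RNA gene Fastkd1 (2.13), Rpa3 (2.05), Col27a1 (1.99) and Hspe1 (1.98). The gene Hspe1, a mitochondrial chaperonin, rose in brown fat (1.94) and was at -0.04 in inguinal fat. Neither interaction passed for Adipoq, Ucp1, Cidea, Ppargc1a, Pparg, Zic1, Pdgfra, Pecam1 or Adgre1.

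The design limits these interactions. The white adipocyte arrays were read with an older Feature Extraction version, on slides of their own, and the brown arrays and all SVF arrays with a newer one, so software, slide and depot cannot be told apart there. Without inguinal SVF replicate 1 and epididymal adipocyte replicate 3, left out together, the counts were 199 and 268, and without 1 array at a time they ran from 84 to 373 and from 184 to 1321.

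**Figure D5:**
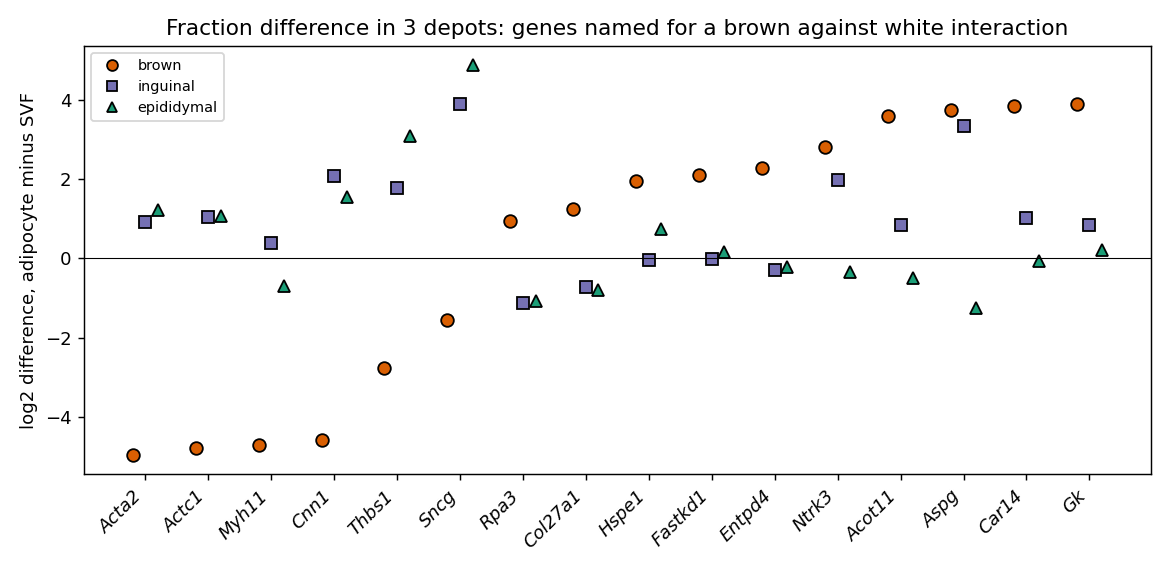
Difference between the fractions (log2, adipocyte minus SVF, y axis) in the brown depot and the inguinal and epididymal depots for the 16 genes named for their interaction. The contractile genes Acta2, Actc1, Myh11 and Cnn1 lie between -4.96 and -4.58 in brown fat and at -0.71 or above in both white depots.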

How the data were processed

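RNA of brown adipocyte and SVF samples was measured on one-colour Agilent arrays, and the authors extracted the images with Feature Extraction 10.5.1.1 (brown and all SVF arrays) or 9.5.3.1, per the file headers. The deposited scanner files give each spot's intensity, background-subtracted by that software and not normalized between arrays. The deposited series matrix holds log2 values whose normalization is not stated, and it was used as an alternative. Its column medians are 8.12 to 8.13, and its brown columns have slopes of 0.743 to 0.803 on the log2 levels used here, so its scale is taken as log2 from the values and its exact processing stays unknown.

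From 43379 spots that are no controls, outlier spots were left out and spots of a probe averaged to 41174 probes. Levels are log2 processed intensities after division by the array's 75th percentile. A probe was kept where some group had it well above background on its 3 arrays (28595 probes), and the brightest such probe stands for each of 19290 genes. RefSeq tables named 23075 probes through an accession, 6582 through a symbol and 3077 through a synonym; the array's name was kept for 8440. Differences were fitted with limma 3.58.1 (R 4.3.3; lmFit, eBayes, two-sided) over all 18 arrays with 6 group means, with Benjamini-Hochberg adjustment over all genes. The test was tested on simulated data. Alternatives were other arrays in the fit, background corrections, scalings, filters, probe and name rules, outlier spots kept, replicate, slide and scan day blocks, array weights and each array left out. Because the brown files give no mean signal, normexp (offset 50) used the median signals.

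Members, 47 gene lists and tests were chosen with earlier results of these data known. Named genes are 9 followed genes, the 12 largest differences and 8 largest bounds per direction, up to 4 leading, 3 opposite and 3 smallest members of each list, 12 isoform pairs and 5 genes per interaction and direction. The interaction genes are the largest among those with a proper gene symbol, also called in brown fat and well above background on every array of both depots. Some genes that the rule names are not reported here. Beyond that rule 49 list members were named after their values were seen: Abcc9, Adra1a, Adrb1, Atp5g2, Bcat2, Bckdha, Cd36, Cdh5, Cebpb, Ckb, Ckmt2, Col1a1, Col4a1, Dbh, Dio2, Dnm1l, Elovl3, Eno1, Fasn, G0s2, Idh3g, Insr, Kcnk3, Kdr, Lhx8, Lipe, Me1, Mmp9, Mrpl58, Notch3, Pde3b, Pdgfrb, Pdk4, Pnpla2, Polrmt, Ppara, Prkar2b, Rarres2, Retn, Sdhd, Smtn, Tagln, Tbx15, Tfam, Tfb2m, Upk3b, Uqcr11, Vegfa and Wt1.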

Additional observations from a re-analysis of the deposited data

Results flagged for a closer look

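The genes below had an adipocyte minus SVF difference in brown fat that differed from that in a white depot by a test of the interaction itself (limma, adjusted over 19290 genes). Values are brown minus white differences on the log2 scale, and no explanation was tested. Against inguinal fat the interaction was -6.67 for Cnn1, -5.87 for Acta2, -5.84 for Actc1, -5.43 for Sncg and -5.10 for Myh11. It was 2.57 for Entpd4, 2.13 for Fastkd1, 2.05 for Rpa3, 1.99 for Col27a1 and 1.98 for Hspe1. Against epididymal fat it was -6.42 for Sncg, -6.18 for Acta2, -6.12 for Cnn1, -5.87 for Thbs1 and -5.85 for Actc1. Positive values there were 4.99 for Aspg, 4.07 for Acot11, 3.90 for Car14, 3.68 for Gk and 3.16 for Ntrk3.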

How the results depend on the processing

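A total of 36 alternative settings were run, and without 1 array at a time the calls ranged from 2471 to 4742 (1317 to 2801 higher and 1011 to 1941 lower), the inguinal interaction calls from 84 to 373 and the epididymal ones from 184 to 1321. Of 199 called genes that the text names, 147 kept their call without any 1 array. With normexp background correction there were 2035 calls (1309 higher and 726 lower) and 46 and 54 interaction calls. Without the filter on dim probes there were 7511 calls (5865 higher, or 78.1 percent) and 226 epididymal interaction calls. Array weights gave 8842 calls (5069 higher and 3773 lower) and 3304 and 6050 interaction calls. Probes well above background on all 18 arrays gave 941 lower genes and 191 epididymal interaction calls, and quantile normalization 683 of the latter. On the scan day of brown replicates 1 and 2 there were 1879 calls (774 higher), from fewer arrays. The share of calls that were higher was 64.3 percent with normexp.

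The replicate numbers were not used to pair the samples. Deviations from the group means of same-numbered fractions correlated at -0.12, -0.05 and 0.39. Across numbers, adipocyte 1 with SVF 2 had 0.38, adipocyte 2 with SVF 1 had 0.23 and adipocyte 1 with SVF 3 had -0.31. Whether the samples are paired cannot be read from these values, since replicates 1 and 2 also shared a slide. A replicate block gave 3937 calls and 931 epididymal interaction calls. A fixed block for slide or for scan day gave no value for the interactions, since white adipocyte slides hold 1 group, and the scan day of brown replicate 3 has 1 array per fraction and no test. Named genes that turned with quantile normalization and the deposited matrix were Fabp4 (-0.026 and -0.043), Rpl11 (-0.152 and -0.160) and Hspa8 (-0.0497 and -0.050). Gsn (-0.707) turned with that matrix and Slc18a2 (0.247) with normexp. The causes were not tested. The 3 arrays per group limit the precision, and 1505 genes have only a bound in adipocytes.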

Other observations

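Of 10 heat shock genes 1 rose, where 12.7 percent of all genes rose and 8.28 percent fell. This was the constitutive chaperone gene Hspa8 (0.63 ± 0.21, adjusted p = 0.0449), at -0.05 both after quantile normalization and in the deposited matrix. It lost its call without 1 of 12 of the 18 arrays. Of 4 sympathetic nerve genes 2 fell, the noradrenaline transporter gene Slc6a2 (at least 1.22-fold) and the vesicular transporter gene Slc18a2 (at least 1.15-fold), while Dbh was at 1.08 and not called. None was called without SVF replicate 3 or adipocyte replicate 3, and 1 without any other 1 brown array.

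In the deposited matrix of log2 values the brown columns match the arrays of their own group, but the replicate numbers are turned by 1 place: matrix columns 1, 2 and 3 match array files 3, 1 and 2 in both fractions.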
